A study of Canis lupus with 20 samples.

Results

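Gene expression in the left atrium was compared with that in the left ventricle of dogs 12 weeks after uninephrectomy, the surgical removal of the right kidney. The comparison used 10 of the 20 arrays of the study, chosen by their titles: 5 arrays of left atrial tissue and 5 of left ventricular tissue from uninephrectomized dogs. The remaining 10 arrays hold the same chambers, 5 arrays each, from sham operated dogs sampled at the same time, and entered here through the shared estimate of the spread and as values set side by side. The labels call the animals normal dogs and assign 6 to each operation, with 1 array per tissue sample and no technical replicates. They do not say which atrial and ventricular samples came from the same dog, and p-values measure the spread between these samples. Each array was hybridised with RNA amplified from 100 ng of total RNA of whole tissue.

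Atrial and ventricular myocardium share most of their contractile machinery but use different myosin light chains, connexins, ion channels and secreted products. The orphan nuclear receptor NR2F1 and its relative NR2F2 are known to promote the atrial programme, while Iroquois factors such as IRX5 act in the ventricle. Atrial myocytes store natriuretic peptides in granules, and ventricular myocytes carry the higher contractile load and are rich in mitochondria.

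The chamber labels were first checked on 4 genes that mark atrial or ventricular muscle. Signals are the deposited log2 values, so a difference of 1 is a doubling, and differences are atrium minus ventricle with the standard error of the limma fit. MYL7, the atrial regulatory myosin light chain, had log2 signals of 14.27, 14.23, 14.17, 14.33 and 14.20 in the atrial arrays and 11.70, 11.55, 11.78, 11.99 and 12.01 in the ventricular arrays. NR2F1 had 8.97, 9.19, 9.32, 8.81 and 8.75 in the atria and 2.26, 1.91, 2.30, 2.39 and 2.23 in the ventricles. Both were higher in every atrial array than in any ventricular array, with differences of the means of 2.44 ± 0.13 for MYL7 and 6.79 ± 0.13 for NR2F1. MYL2, the ventricular regulatory light chain, had 4.45, 4.71, 3.37, 7.40 and 3.69 in the atria and 14.69, 14.49, 14.49, 14.58 and 14.50 in the ventricles. IRX5 had 0.78, 0.91, 0.78, 1.16 and 1.29 in the atria and 7.36, 4.99, 7.08, 5.54 and 6.73 in the ventricles. Here every ventricular array lay above every atrial array. The differences of the means were -9.83 ± 0.57 for MYL2 and -5.36 ± 0.41 for IRX5, and the nearest arrays were 7.09 and 3.70 apart. Atrial array 4 stood highest in MYL2. All 10 arrays thus matched their chamber label in these 4 genes, whose adjusted p in limma ranged from 1.06e-17 for NR2F1 to 2.12e-08 for IRX5.

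Array medians lay between 2.33 and 2.36 over the 10 arrays. Upper quartiles were 5.34 to 5.50 in the atria and 5.24 to 5.31 in the ventricles and did not overlap. The array carries control probes at the 3' end and farther upstream in ACTB, GAPDH and EEF1A, and a larger signal gap between them is a sign of RNA degradation. This gap averaged 1.10 ± 0.26 (SD, n = 5) in the atria and 1.14 ± 0.15 (SD, n = 5) in the ventricles, a difference of -0.04 (two-sided exact permutation p = 0.738). Atrial arrays 4 and 5 had gaps of 1.45 and 1.31, against 0.90 to 0.93 in the other atrial arrays. For GAPDH alone the gap was larger in the atria, 1.77 against 1.62, with an exact permutation p of 0.0159 and 0.0635 after adjustment over the 4 gaps tested. The part of the RNA gap in the differences below was not tested beyond the alternatives in the closing section.

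The chambers differed in many genes, in both directions. Of 30047 tested probe sets 8190 (27.3%) passed an adjusted p of 0.05 in limma, 4429 (14.7%) with higher signals in the atrium and 3761 (12.5%) with lower. After quantile normalization the balance turned, with 3886 higher and 4296 lower. With 1 probe set per gene, 3418 of 11423 genes (29.9%) were called, 1852 (16.2%) higher and 1566 (13.7%) lower in the atrium. The median size of a called difference was 0.59 for the higher and 0.47 for the lower genes, and the median standard error over all genes was 0.10. Large differences were more often higher in the atrium: 450 genes were higher by at least 1 and 209 lower, 140 and 49 by at least 2, and 30 and 16 by at least 4. Atrial and ventricular values did not overlap in 6301 (21.0%) of the tested probe sets and 2689 (23.5%) of the genes. In whole tissue, fewer cells of a type and less RNA per cell cannot be told apart.

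**Figure D1:**
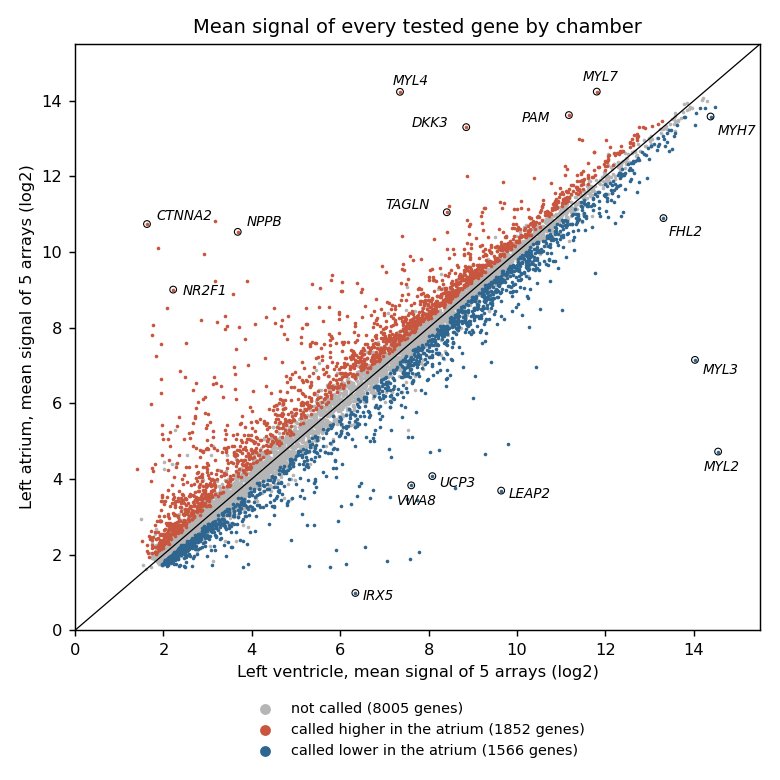
Each point is 1 of 11423 tested genes, at its mean log2 signal over 5 ventricular arrays (x axis) and 5 atrial arrays (y axis) of uninephrectomized dogs, coloured by whether it was called higher (1852) or lower (1566) in the atrium, with the line of equal signal. MYL4, NPPB, NR2F1 and CTNNA2 lie farthest above the line among the labelled genes, and MYL2, MYL3, LEAP2 and IRX5 farthest below it.

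Among genes with a symbol, the largest atrial excess belonged to CTNNA2, the neuronal form of alpha catenin, which ties cadherins to actin. Its log2 signals were 10.88, 10.61, 10.78, 10.80 and 10.62 in the atria and 1.69, 1.60, 1.55, 1.64 and 1.65 in the ventricles, a difference of 9.11 ± 0.14 (adjusted p 4.67e-19 in limma). All 4 of its tested probe sets were called higher in the atrium, and their mean difference was 4.89. HSD17B13, a lipid droplet dehydrogenase, followed with 10.43, 7.32, 11.65, 10.01 and 11.15 in the atria against 1.39 to 2.40 in the ventricles, a difference of 8.24 ± 0.60. The atrial arrays spread widely in this gene, with array 2 lowest, yet none came near the ventricles. CRYM, which binds thyroid hormone in the cytosol, differed by 7.64 ± 0.49, with atrial signals of 10.09 to 11.10 and ventricular signals of 2.12 to 4.58. HPGDS, a synthase of prostaglandin D2, differed by 7.04 ± 0.51.

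The other genes among the 12 with the largest atrial excess were MYL4 (6.88 ± 1.07), NPPB (6.85 ± 0.83), NR2F1 (6.79 ± 0.13), ETNPPL (6.46 ± 0.36), TOX (6.31 ± 0.12), ALDH1B1 (6.08 ± 0.71), CDO1 (6.07 ± 0.49) and SLC35G2 (5.63 ± 0.20). Among them are enzymes of small molecule metabolism: ETNPPL breaks down phosphoethanolamine, ALDH1B1 oxidises aldehydes in mitochondria and CDO1 oxidises cysteine. TOX, a nuclear protein of the HMG box family, had atrial signals of 7.93 to 8.33 and ventricular signals of 1.60 to 1.92, one of the tightest separations of the 12. Averaged over all tested probe sets of each gene, the difference was 4.63 for HSD17B13, 3.73 for HPGDS, 3.82 for NR2F1 and 3.22 for ALDH1B1, each in the same direction.

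**Figure D2:**
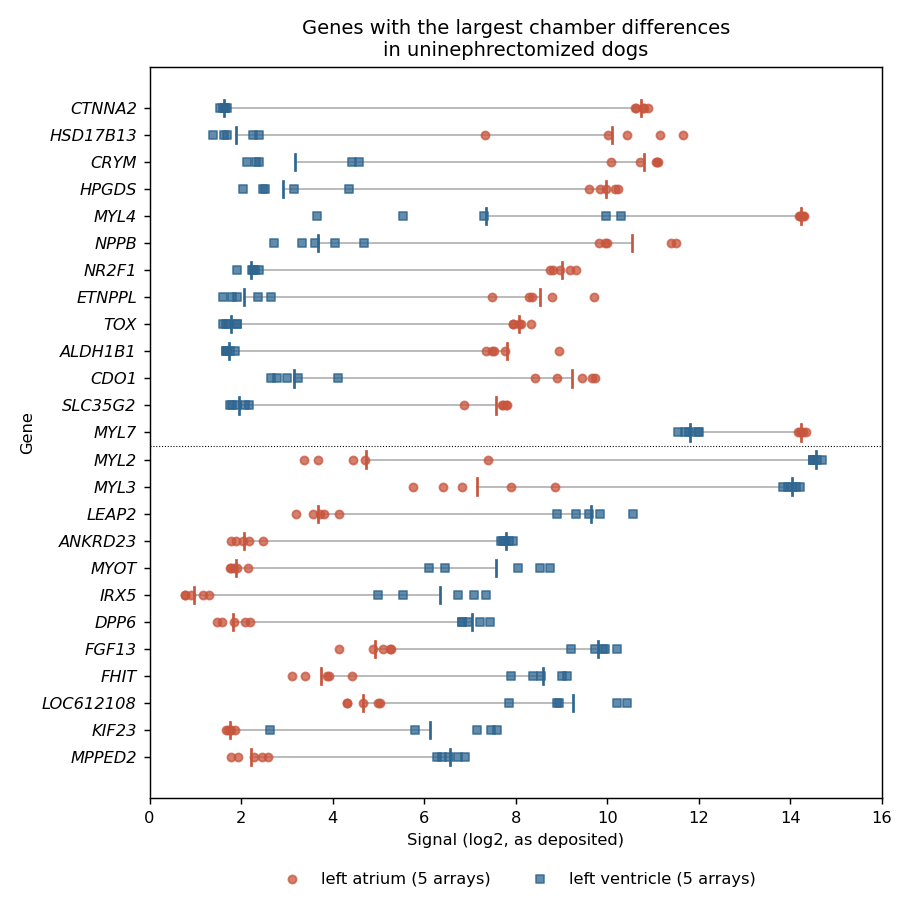
Log2 signals (x axis) of the 12 genes with the largest atrial excess, of MYL7 and of the 12 genes with the largest ventricular excess (y axis, parted by the dotted line) in the 5 atrial arrays (circles) and 5 ventricular arrays (squares) of uninephrectomized dogs. Vertical ticks mark group means. The circles and squares overlap in none of the 25 genes, which apart from MYL7 were chosen for their large differences. Over all tested genes 2689 (23.5%) did not overlap.

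Among genes with a symbol that were lower in the atrium, the light chains MYL2 and MYL3 came first. MYL3, the ventricular essential light chain, had signals of 7.90, 8.85, 6.40, 6.82 and 5.76 in the atria and 14.11, 14.03, 13.94, 14.20 and 13.84 in the ventricles, a difference of -6.88 ± 0.72. LEAP2, a secreted peptide known from liver as an antagonist of the ghrelin receptor, had 3.82, 3.72, 3.20, 3.57 and 4.14 in the atria and 9.31, 10.56, 9.60, 8.89 and 9.84 in the ventricles (-5.95 ± 0.47). Both genes had atrial signals far under every ventricular one. ANKRD23, a titin-binding ankyrin repeat protein (-5.72 ± 0.21), and MYOT, the Z-disc protein myotilin (-5.69 ± 0.61), were close to the floor in the atria, at 1.77 to 2.48 and 1.76 to 2.15. MYOT ranged more widely in the ventricles, from 6.10 to 8.75, than ANKRD23, from 7.68 to 7.94.

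A pair of channel regulators were in the same group. DPP6, a partner of the potassium channels that carry the transient outward current, differed by -5.22 ± 0.38, and FGF13, an intracellular factor that binds sodium channels, by -4.86 ± 0.38. The remaining genes of the 12 were FHIT (-4.84 ± 0.31), LOC612108 (-4.60 ± 0.57), the mitotic kinesin KIF23 (-4.37 ± 0.78) and MPPED2 (-4.36 ± 0.23). KIF23 had ventricular signals of 7.45, 5.79, 7.60, 2.64 and 7.15 and atrial signals of 1.68 to 1.87. Ventricular array 4 was thus nearest to the atrial level, and the other 4 were at least 5.79. Averaged over their probe sets, the difference was -2.95 for IRX5, -3.61 for MYOT, -2.32 for FGF13, -2.73 for FHIT and -2.57 for KIF23.

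Where both chambers had mean signals of at least log2 6, MYL4 had the largest atrial excess and MYL3 the largest ventricular excess, at the values given with the light chains. Next among the atrial genes, the secreted glycoprotein DKK3 was at 13.30 ± 0.16 (SD, n = 5) in the atria and 8.85 ± 0.34 (SD, n = 5) in the ventricles, a 21.9-fold difference. SCG5, a chaperone of neuroendocrine secretion (3.16 ± 0.46), RABGAP1L, a GTPase activating protein (3.15 ± 0.22), the protease PRSS23 (3.02 ± 0.18), LOC480441 (2.94 ± 0.28, or 1.75 averaged over its probe sets), PDGFRL (2.92 ± 0.30) and LRRC4 (2.81 ± 0.22) followed. All 7 tested probe sets of RABGAP1L were called higher. In the other direction, MYL3 was followed by PLA2G7, the lipase that degrades platelet activating factor (-3.48 ± 0.26), TMEM97 (-2.87 ± 0.36), the methyltransferase SMYD2 (-2.55 ± 0.27), FHL2, a LIM domain protein of the sarcomere (-2.42 ± 0.27), GPT, alanine aminotransferase (-2.33 ± 0.32), LRRC39, a protein of the M-band (-2.32 ± 0.18), and the co-chaperone BAG1 (-2.31 ± 0.15).

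Among atrial markers, 9 of 15 tested genes (60.0%) were called higher in the atrium and none lower, against 16.2% and 13.7% of all genes. Their median difference was 2.44 against -0.02 over all genes. Of the ventricular markers 9 of 12 were called lower and none higher, with a median of -0.78. The atrial genes that did not pass were BMP10, KCNJ5, FGF12, HAMP, CHRM2 and KCNA5, with differences of 0.03 to 0.86. KCNA5 (0.86 ± 0.37, adjusted p 0.0934) did pass with the RNA gap as a covariate (0.92, adjusted p 0.0335 in limma) and without atrial array 3 (1.10, adjusted p 0.0344). BMP10 and KCNJ5 were near the floor in both chambers, at means of 1.93 and 1.90 and of 1.92 and 1.87. Because these lists were chosen with earlier results of the data known, their counts are a description.

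**Figure D3:**
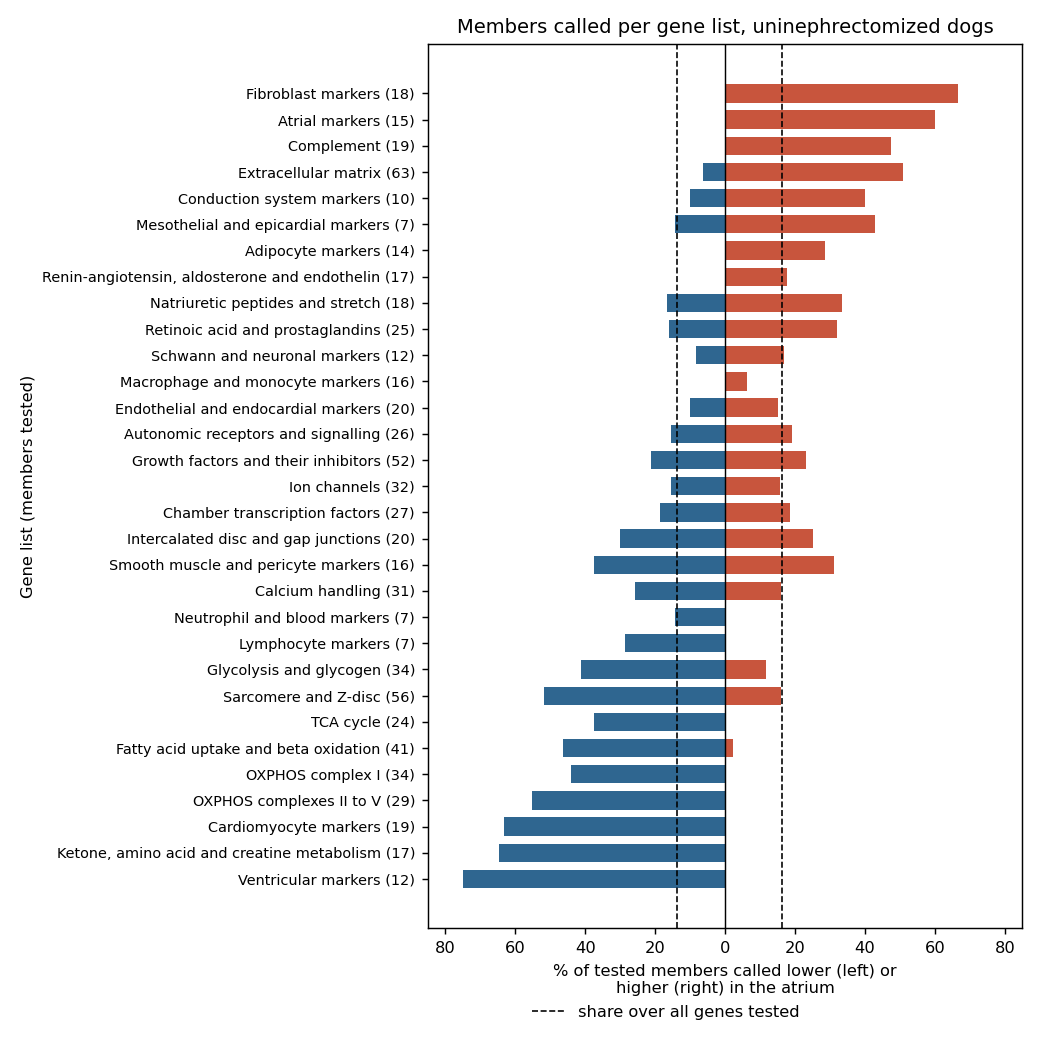
For each of 31 gene lists (y axis, tested members in brackets) the bars give the percentage of tested members called lower (left) or higher (right) in the atrium of uninephrectomized dogs, and the dashed lines give the same over all 11423 genes, 13.7% lower and 16.2% higher. Ventricular markers (9 of 12 lower) and fibroblast markers (66.7% higher) stand at the ends, and macrophage markers have 6.2% called.

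The sarcomere list, myosins, actins, troponins and Z-disc proteins, leaned to the ventricle, with a median of -0.37. In it 29 of 56 tested genes (51.8%) were lower in the atrium and 9 (16.1%) higher, against 13.7% and 16.2% of all genes. The light chains made up the extremes in both directions. MYL4, the atrial essential light chain, was at 14.20, 14.22, 14.18, 14.29 and 14.28 in the atria and at 9.97, 3.66, 10.30, 5.53 and 7.30 in the ventricles. The atria were thus nearly constant, and the ventricles spread over more than 6 log2 units without reaching them. MYOZ1, a Z-disc protein that binds calcineurin, was also higher in the atrium (2.51 ± 0.35).

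MYBPC1, the slow skeletal myosin binding protein, was called higher (5.09 ± 1.57, adjusted p 0.0208) with atrial signals of 10.43, 11.45, 2.55, 10.95 and 2.62 and ventricular signals of 2.28 to 2.71. It was high in 3 atrial arrays and at the ventricular level in the other 2, and the call was lost when any of atrial arrays 1, 2 and 4 was left out (adjusted p 0.0573, 0.0641 and 0.0609 in limma) and when only the 10 uninephrectomized arrays were fitted (adjusted p 0.0587). MYH7, the slow myosin heavy chain, was at 13.58 ± 0.23 in the atria and 14.38 ± 0.15 in the ventricles (SD, n = 5), a difference of -0.80 ± 0.10. Of its 5 tested probe sets 3 were called lower, 1 dim probe set was called higher, and their mean difference was -1.85. MYH6, its near-identical relative, may share signal on these probes and was not analysed here, so the difference in MYH7 is uncertain. General markers of heart muscle differed less: TNNC1, cardiac troponin C, by -0.34 ± 0.06, while TNNT2 (-0.30 ± 0.12, adjusted p 0.0841) and ACTC1 (0.10 ± 0.08, adjusted p 0.359) did not pass in limma.

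Of 27 tested chamber transcription factors 5 were higher and 5 lower in the atrium, 18.5% each, against 16.2% and 13.7% of all genes. NR2F2 had 5.26, 5.50, 5.52, 5.89 and 5.26 in the atria and 4.06, 4.06, 3.94, 4.43 and 4.90 in the ventricles (1.21 ± 0.22). Its atrial values lay above all ventricular ones, at a smaller distance than those of NR2F1. MEIS1, a homeobox factor, was higher by 0.39 ± 0.08 at signals under 3. On the ventricular side IRX3 had 2.63 to 3.04 in the atria and 6.92, 4.07, 7.27, 4.54 and 6.99 in the ventricles (-3.06 ± 0.61), and RXRG, a retinoid X receptor, differed by -2.51 ± 0.24. IRX3 and IRX5 were both lowest in ventricular arrays 2 and 4. TBX5, IRX4 and HEY2 were not analysed here.

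Among natriuretic peptide and stretch genes 6 of 18 (33.3%) were higher and 3 (16.7%) lower, against 16.2% and 13.7% of all genes. NPPB, which encodes the B-type natriuretic peptide, had 9.94, 9.81, 9.99, 11.51 and 11.40 in the atria and 4.06, 3.62, 3.33, 2.72 and 4.68 in the ventricles. Atrial arrays 4 and 5 were the highest, and these are the arrays with the larger RNA gap. The NPPB call held with the RNA gap as a covariate and without these arrays, and the part of the gap was not tested further. NPR3, the receptor that clears natriuretic peptides, was higher by 2.86 ± 0.25, PAM, the amidating enzyme abundant in atrial granule membranes, by 2.45 ± 0.06, and SPP1, osteopontin, by 3.47 ± 0.73. PAM separated sharply, with 13.52 to 13.68 in the atria and 11.07 to 11.29 in the ventricles, and all 5 of its probe sets were called higher. ANKRD1 (-0.68 ± 0.14) and ACTA1, skeletal alpha actin (-0.65 ± 0.17), which are known to respond to stretch, were lower in the atrium, although ACTA1 did not pass after quantile normalization (adjusted p 0.0646). CORIN, the protease that activates atrial natriuretic peptide, had means of 8.45 and 7.68 and did not pass (0.76 ± 0.39, adjusted p 0.161). NPPA was not analysed here.

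At the intercalated disc, where myocytes are joined mechanically and electrically, 5 of 20 genes were higher and 6 lower. GJA5, connexin 40, had 8.81, 8.37, 8.78, 8.25 and 8.37 in the atria and 6.08, 3.78, 6.23, 3.00 and 3.46 in the ventricles, a difference of 4.01 ± 0.63, or 2.41 averaged over its probe sets. Ventricular arrays 1 and 3 were higher than the other 3. GJA1, connexin 43, overlapped between chambers (7.31 to 8.57 in the atria, 7.58 to 8.88 in the ventricles) and did not pass (-0.43 ± 0.38, adjusted p 0.439). The desmosomal genes went both ways, DSC2 higher by 0.68 ± 0.09 and DSP lower by 1.46 (difference -1.46 ± 0.36) in the atrium. Without atrial arrays 4 and 5 the call of DSP was lost (adjusted p 0.0559).

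Ion channel genes were called about as often as all genes, 5 of 32 (15.6%) higher and 5 (15.6%) lower, against 16.2% and 13.7%. CACNA2D3, an auxiliary subunit of calcium channels, had 6.43 to 6.95 in the atria and 2.23 to 2.72 in the ventricles (4.23 ± 0.37, or 1.71 averaged over its 3 probe sets, all called higher). KCNJ3, a subunit of the acetylcholine-activated potassium channel, had 5.25, 4.95, 6.06, 4.80 and 4.84 in the atria and 1.87 to 2.08 in the ventricles (3.21 ± 0.24). KCNJ5, its usual partner, was near the floor in both. The KATP channel subunits moved apart: ABCC8 was higher in the atrium (2.14 ± 0.34, or 1.00 averaged over its probe sets) and KCNJ8 lower (-1.45 ± 0.35). KCNIP2, a subunit of the transient outward channel, was higher in the atrium (1.51 ± 0.41), with overlapping ranges of 10.21 to 11.92 and 8.43 to 10.50, and KCND3, the pore subunit, was lower (-0.49 ± 0.11).

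Calcium handling genes had 5 of 31 (16.1%) higher and 8 (25.8%) lower, against 16.2% and 13.7% of all genes. The central cycling genes were at high signals in both chambers: ATP2A2, the sarcoplasmic calcium pump, at 13.90 and 13.77 (0.13 ± 0.07, adjusted p 0.195), and RYR2, the release channel, at 12.80 and 12.92 (-0.12 ± 0.06, adjusted p 0.162). Averaged over their probe sets the differences were -0.15 for ATP2A2 and -0.36 for RYR2. ATP2A2 passed as higher in the atrium after quantile normalization (0.35 ± 0.05, adjusted p 7.57e-05 in limma). PLN, phospholamban, the inhibitor of the pump, was lower in the atrium by a small amount (-0.27 ± 0.07, adjusted p 0.00385; -0.15 after quantile normalization). PPP1R1A, a phosphatase inhibitor (-1.32 ± 0.16), and LRRC10 (-1.85 ± 0.27) were lower, and ITPR1, the inositol trisphosphate receptor, was higher (0.90 ± 0.14).

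Of the autonomic genes 5 of 26 (19.2%) were higher and 4 (15.4%) lower, near the 16.2% and 13.7% of all genes. GNAO1, the alpha subunit of the G protein Go, had 7.91, 7.34, 8.11, 8.28 and 8.15 in the atria and 3.13, 3.91, 2.44, 3.92 and 3.55 in the ventricles (4.57 ± 0.26). RGS6, which shortens signals of the muscarinic pathway, was higher by 1.38 ± 0.15, or 0.83 averaged over its probe sets. CHRM2, the muscarinic receptor, was at 2.53 and 2.06 (0.47 ± 0.18, adjusted p 0.0694). ADCY4, an adenylyl cyclase, was lower (-1.07 ± 0.15), as was the adrenergic receptor ADRA1B (-0.64 ± 0.14). Among renin-angiotensin and endothelin genes 3 of 17 (17.6%) were higher, near the 16.2% of all genes, and none lower. The endothelin receptor EDNRA led them (9.14 to 9.37 against 7.79 to 8.14, 1.26 ± 0.09).

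In the retinoic acid and prostaglandin list 8 of 25 were higher and 4 lower, with large differences on both sides. RBP4, the retinol carrier, was at 8.78, 10.10, 8.30, 9.11 and 8.19 in the atria and 4.23, 2.41, 4.57, 3.30 and 3.31 in the ventricles (5.33 ± 0.46). With HPGDS, PTGS2, the inducible cyclooxygenase, was higher (1.98 ± 0.41). The prostaglandin E2 receptors PTGER3 and PTGER4 were lower in the atrium, by 4.10 (difference -4.10 ± 0.57) and 1.52 (difference -1.52 ± 0.18). PTGER3 had 1.56 to 1.92 in the atria and 6.57, 7.07, 4.66, 4.11 and 6.49 in the ventricles.

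In the lists of mitochondrial energy supply, called genes were nearly all lower in the atrium, although many members did not pass. Of all genes 13.7% were lower and 16.2% higher. In complex I of the respiratory chain 15 of 34 tested subunits (44.1%) were lower and none higher (median -0.18). In complexes II to V 16 of 29 (55.2%) were lower and none higher (median -0.22). NDUFV3 had 10.43, 10.30, 10.38, 10.32 and 10.38 in the atria and 10.78, 10.84, 10.95, 10.68 and 10.72 in the ventricles (-0.43 ± 0.08), and UQCRFS1, the Rieske protein of complex III, 13.06 to 13.24 against 13.46 to 13.63 (-0.42 ± 0.07). The chamber ranges did not overlap in either gene. SDHA, the flavoprotein of complex II, differed by -0.35 ± 0.08. The complex I count depended on 1 array, and was 8 without atrial array 2. In the citric acid cycle 9 of 24 (37.5%) were lower and none higher (median -0.21). Among the lower genes were SUCLA2 (-0.75 ± 0.10) and SUCLG2 (-0.97 ± 0.16), both subunits of succinyl-CoA ligase. That count ranged from 7 to 14 when 1 array was left out and from 6 to 14 under the other alternatives. It was 14 without atrial array 3 and 14 with the RNA gap as a covariate.

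Fatty acid uptake and oxidation had 19 of 41 genes (46.3%) lower and 1 (2.4%) higher (median -0.24), against 13.7% and 16.2% of all genes. UCP3, a mitochondrial carrier linked to fatty acid use, had 5.37, 3.84, 3.91, 3.40 and 3.85 in the atria and 7.54, 8.18, 7.80, 8.92 and 7.98 in the ventricles (-4.01 ± 0.43). ECI1, an isomerase of beta oxidation (-1.83 ± 0.22), MLYCD, malonyl-CoA decarboxylase (-1.26 ± 0.09), and CD36, the fatty acid transporter (-1.14 ± 0.13), were lower as well. In ketone, amino acid and creatine metabolism 11 of 17 (64.7%) were lower and none higher (median -0.62). BDH1, which oxidises the ketone body beta-hydroxybutyrate, had 4.96, 4.91, 4.12, 5.22 and 4.56 in the atria and 7.87, 7.78, 8.57, 8.41 and 8.52 in the ventricles (-3.48 ± 0.26), and all 5 of its probe sets were called lower.

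Glycolysis and glycogen genes had 14 of 34 (41.2%) lower and 4 (11.8%) higher (median -0.18), against 13.7% and 16.2% of all genes. The muscle glycogen phosphorylase PYGM (-1.66 ± 0.32), the branching enzyme GBE1 (-1.45 ± 0.13), the glycogen-targeting subunit PPP1R3A (-1.44 ± 0.18) and the glucose transporter SLC2A1 (-1.63 ± 0.21) were lower in the atrium. PYGL, the liver phosphorylase (1.00 ± 0.22, or 0.52 averaged over its probe sets), and PGAM1, the non-muscle phosphoglycerate mutase (0.49 ± 0.07), were higher. ENO1, the ubiquitous enolase, was higher in its brightest probe set (0.46 ± 0.08) and by 0.13 averaged over its 4 probe sets.

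Extracellular matrix genes leaned to the atrium, with 32 of 63 (50.8%) higher and 4 (6.3%) lower (median 0.63), against 16.2% and 13.7% of all genes. COL1A1, a chain of type I collagen, had 10.60, 11.81, 10.99, 11.61 and 10.74 in the atria and 9.44, 8.63, 9.46, 9.63 and 9.23 in the ventricles (1.87 ± 0.31), and COL3A1, of type III collagen, 11.43, 12.13, 12.17, 12.29 and 11.80 against 10.37, 9.98, 10.50, 10.38 and 10.69 (1.58 ± 0.32). Averaged over their probe sets these differences were 1.20 and 1.02. COL14A1, a collagen that lies along fibrils, had 7.71 to 8.20 against 2.44 to 4.84 (4.33 ± 0.46, 1.44 averaged over its 7 probe sets, all called higher). The proteoglycans OGN (3.53 ± 0.28) and VCAN (2.75 ± 0.45) were higher too. LAMB1, a laminin chain of basement membranes, was lower (-0.95 ± 0.20).

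**Figure D4:**
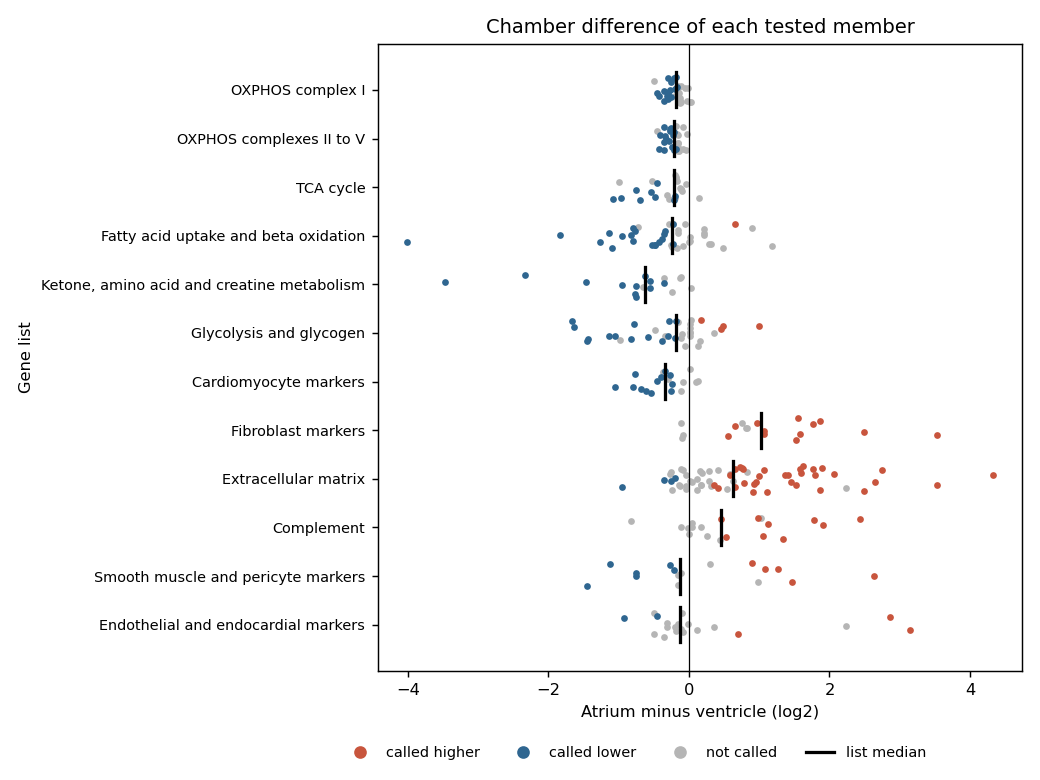
Each point is a tested member of 1 of 12 gene lists (y axis) at its atrium minus ventricle difference (x axis, log2) in uninephrectomized dogs, coloured by its call, with the list median as a black tick. Medians run from -0.62 (ketone, amino acid and creatine metabolism) to 1.02 (fibroblast markers), and points of the respiratory chain lie close to 0 on the ventricular side.

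Complement genes were higher in 9 of 19 (47.4%) and lower in none (median 0.45), against 16.2% and 13.7% of all genes. Among the higher were CFI (2.44 ± 0.29), which inactivates C3b, CLU (1.78 ± 0.25) and C1R (1.34 ± 0.32, or 0.82 averaged over its probe sets). Growth factors and their inhibitors had 12 of 52 (23.1%) higher and 11 (21.2%) lower, against 16.2% and 13.7% of all genes. ROBO2, a receptor of Slit ligands (3.12 ± 0.41, or 1.83 averaged over its probe sets), and FST, the activin inhibitor follistatin (1.99 ± 0.49), were higher, and FGF9 (-1.46 ± 0.16) and BMP6 (-1.48 ± 0.43) lower in the atrium.

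Markers of cell types moved with these lists. Of 18 fibroblast markers 12 (66.7%) were higher in the atrium and none lower, with a median of 1.02. Of all genes 16.2% were higher and 13.7% lower. The summed signal of the fibroblast markers (log2 of the sum of unlogged values) was 15.15 to 15.71 in the atria and 14.17 to 14.63 in the ventricles. DCN and LUM, which define the type together with PDGFRA, were at means of 12.10 and 12.20 in the atria and 11.44 and 11.14 in the ventricles. Of 19 cardiomyocyte markers 12 (63.2%) were lower and none higher (median -0.34), with summed signals of 17.30 to 17.40 against 17.55 to 17.73. The matrix, complement and fibroblast lists thus had more members higher in the same arrays in which cardiomyocyte and energy genes had more members lower, and the part of cell composition in these differences was not tested. Several genes stand in more than 1 of these lists.

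Smooth muscle and pericyte markers split, with 5 of 16 (31.2%) higher and 6 (37.5%) lower, against 16.2% and 13.7% of all genes. The contractile genes TAGLN (9.79, 10.68, 11.53, 11.73 and 11.53 against 8.25 to 8.63, 2.64 ± 0.30), MYH11 (1.47 ± 0.33, or 0.68 averaged over its probe sets) and ACTA2 (1.26 ± 0.26) were higher in the atrium, and RGS5 (-0.75 ± 0.16, or -1.13 averaged over its probe sets) and KCNJ8, known from pericytes, lower. Other called members included MCAM, higher (1.08 ± 0.17), and the smooth muscle protein smoothelin, SMTN, lower (-1.12 ± 0.28). Of the 3 probe sets of SMTN 1 was called. Another was at 7.05 in the atria and 6.96 in the ventricles (0.09 ± 0.19, adjusted p 0.765 in limma). With 1 probe set per gene, the list thus did not part cleanly into contractile and pericyte genes, a reading that is uncertain for SMTN. The summed signals of this list overlapped, at 14.19 to 14.84 and 14.30 to 14.42. Of 20 endothelial and endocardial markers 3 were higher and 2 lower. PECAM1 was at 10.17 and 10.32 and did not pass (adjusted p 0.219), VWF was lower in the atrium (-0.46 ± 0.08), and the valve and endocardial genes CDH11 (3.14 ± 0.53) and NPR3 were higher.

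Macrophage markers had 1 of 16 (6.2%) higher, CD14 (0.30 ± 0.10), against 16.2% of all genes. Their summed signals overlapped (10.31 to 10.69 and 10.23 to 10.89). CD68 and CSF1R were near the floor in both chambers, with means of 2.50 and 2.37 and of 2.14 and 2.22. Of 7 lymphocyte markers 2 (28.6%) were lower, JCHAIN and NKG7, and of 7 neutrophil and blood markers 1 (14.3%), GP9. Of all genes 13.7% were lower. The calls of CD14, JCHAIN, NKG7 and GP9 were each lost in at least 3 of the 10 fits that leave out 1 array. Adipocyte markers had 4 of 14 (28.6%) higher and none lower, against 16.2% and 13.7% of all genes. ADIPOQ, adiponectin, had 6.51, 3.10, 6.60, 5.51 and 5.44 in the atria and 1.81 to 2.11 in the ventricles (3.48 ± 0.83), while PLIN1 and LEP stayed between 1.97 and 2.77 in all 10 arrays. Mesothelial markers had 3 of 7 (42.9%) higher and 1 (14.3%) lower, with WT1 at 1.93 and 1.98. Schwann and neuronal markers had 2 of 12 (16.7%) higher and 1 (8.3%) lower, against 16.2% and 13.7% of all genes. Conduction system markers had 4 of 10 higher and 1 lower, led by VSNL1, a neuronal calcium sensor (5.43 ± 0.66, or 2.74 averaged over its probe sets), and the transcription factor ETV1 (2.96 ± 0.47).

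The chamber difference after uninephrectomy was set beside that in sham dogs, which rests on other arrays. In sham dogs 6257 of 30047 probe sets (20.8%) and 2603 of 11423 genes (22.8%) were called. The 2147 genes called in the same direction after both operations are 62.8% of the genes called in uninephrectomized and 82.5% of those called in sham dogs. Of the 1852 genes higher in the uninephrectomized atrium 1841 had the same sign in sham dogs, and of the 1566 lower genes 1533. Across genes, which are not independent replicates, the chamber differences had a Pearson correlation of 0.945. The difference of the chamber differences itself was called for 0 of 30047 probe sets (0%) in limma, with 893 (2.97%) at an unadjusted p under 0.05 and a smallest adjusted p of 1.

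**Figure D5:**
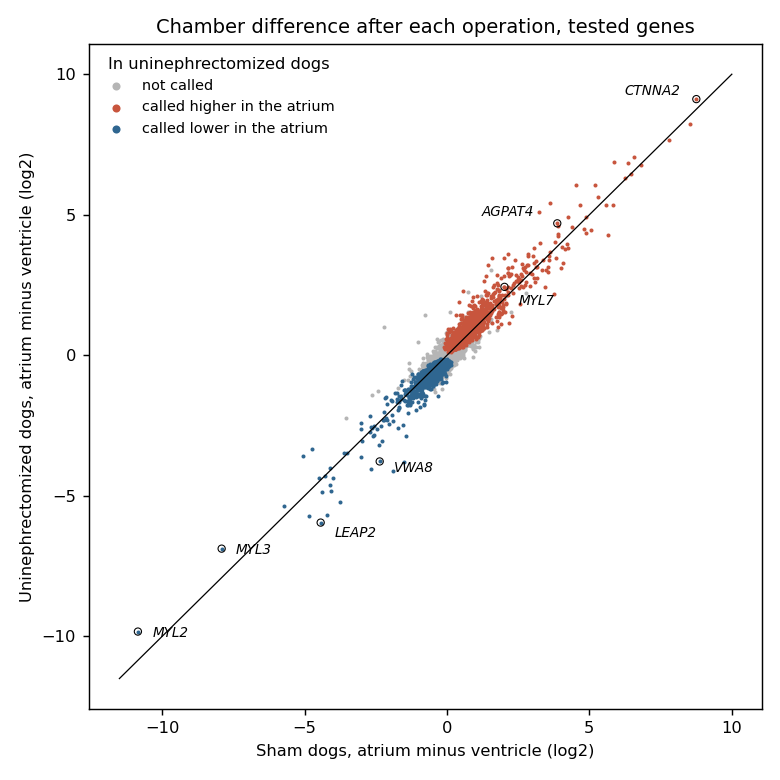
Atrium minus ventricle differences (log2) of 11423 tested genes in sham dogs (x axis, 5 arrays per chamber) and in uninephrectomized dogs (y axis, 5 arrays per chamber), coloured by the call in uninephrectomized dogs, with the line of equal differences. The points follow the line from MYL2, at -10.85 and -9.83, to CTNNA2, at 8.75 and 9.11.

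The 5 genes with the smallest unadjusted p for this difference were VWA8, AGPAT4, DRG2, SH2D1B and RFESD, each with an adjusted p of 1. VWA8, a mitochondrial ATPase, was at 3.83 ± 0.26 in the uninephrectomized atria and 7.61 ± 0.47 in the ventricles (SD, n = 5), a difference of -3.78 ± 0.23 against -2.36 ± 0.23 in sham dogs. AGPAT4, an acyltransferase of phospholipid synthesis, differed by 4.69 ± 0.14 and 3.87 ± 0.14. Averaged over their probe sets, the differences in uninephrectomized dogs were -2.40 for VWA8, 2.89 for AGPAT4 and -0.46 for DRG2. The standard error of such a difference of differences had a median of 0.15 over all genes, which limits the size of change that 5 arrays per group can show.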

How the data were processed

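The deposited values are log2 signals of 43035 probe sets of an Affymetrix canine array, ranging from 0.43 to 15.0. For the authors' normalization, the method was not given in the sources used here. No array column was left unused. After removal of 111 control probe sets, the lowest 30% by mean signal over the 20 arrays (mean log2 up to 1.87) were not tested, which left 30047 probe sets. limma 3.58.1 in R 4.3.3 fitted 1 mean for each of the 4 groups with a shared estimate of the spread, and p-values are two-sided and Benjamini-Hochberg adjusted over all tested probe sets. A call is an adjusted p under 0.05. A gene is represented by its single-symbol probe set with the highest mean over the 20 arrays, and symbols come from the platform annotation (29254 probe sets with 1 symbol, 439 with several, 13231 with none).

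Named are the 4 markers and the 12 called genes with the largest difference in each direction. Added were the 8 largest with means of at least log2 6 in both chambers. So were up to 4 called members of each list in each direction, genes with fixed roles and the 5 genes with the smallest p against sham dogs. Outside this rule stand some, not all, of the defining markers and uncalled members of the lists. Comparison and lists were chosen with earlier results of these data known. The calculation was tested on simulated data. Alternatives tried were the arrays fitted, the filter, median and quantile scaling, array weights, a trended robust prior, replicate blocks, the RNA gap as a covariate, the mean over probe sets, and leaving out arrays.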

Additional observations from a re-analysis of the deposited data

Results flagged for a closer look

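For 126 named genes the 5 arrays of each chamber were examined, each chamber of a gene forming a group. In 10 of these groups 1 array lay apart from the other 4 by Dixon's test. Chance alone picks out about 1 in 20 groups, so these 10 are no more than chance alone would give. The arrays are therefore listed as a description. In the atria, array 3 was highest in ALDH1B1 (8.94, the others 7.35 to 7.76) and in ENO1 (11.51, the others 11.20 to 11.28). Atrial array 4 was lowest in SLC35G2 (6.86, the others 7.69 to 7.81) and highest in OGN (9.14, the others 7.87 to 8.19) and MYH11 (10.88, the others 8.89 to 9.39). Atrial array 1 was highest in UCP3 (5.37, the others 3.40 to 3.91) and lowest in CDH11 (5.20, the others 6.98 to 7.65), and atrial array 2 was lowest in FST (6.60, the others 7.98 to 8.14). In the ventricles, array 4 was highest in BAG1 (9.72, the others 9.22 to 9.36) and RYR2 (13.14, the others 12.82 to 12.90).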

How the results depend on the processing

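The count of 8190 called probe sets ranged from 7046 to 7724 when 1 array was left out and from 6381 to 9070 under the other alternatives, the lowest without atrial arrays 4 and 5, which was chosen after seeing the data. The count against sham dogs was 0 in every fit that included sham arrays. Uninephrectomized arrays of the same number did not deviate together (correlations of -0.061, -0.069, 0.115, -0.235 and 0.097, and 0 of 5 atrial arrays correlated best with their own number), while those of sham dogs did (0.209 to 0.463). Each uninephrectomized atrial array correlated best with a ventricular array of another number, a different one each (0.167 to 0.536), which is a hint from the data and not from the design. DLA88 and ERAP2, given below, ran along the same matches, but they were among the probe sets that gave these correlations. They were picked after their values were seen, so they are not separate evidence for a pairing. No fit used these matches, so counts and standard errors under such a pairing are not known. The blocks below use the number, so they do not test pairing by dog. With a fixed replicate block 8312 probe sets were called, and with a random replicate block 9010. With 1 array left out, the complex I count ranged from 8 (without atrial array 2) to 15, the citric acid cycle count from 7 to 14 (without atrial array 3) and the complement count from 6 to 9. With the RNA gap as a covariate the citric acid cycle count was 14. Under the alternatives other than leaving out 1 array, this count ranged from 6 to 14. The fatty acid count then ranged from 14 to 20, and the count of lower glycolysis and glycogen genes from 10 to 16. The difference in the RNA gap ranged from -0.13 to 0.01. Of the 121 called genes among the 126 examined for outlying arrays, 5 lost their call when 1 array was left out: MYBPC1, CD14, JCHAIN, NKG7 and GP9. Quantile normalization gave 3886 probe sets higher and 4296 lower. Among uncalled genes, ATP2A2 turned to -0.15 as a mean over probe sets and was called at 0.35 after quantile normalization, KCNA5 was called with the RNA gap as a covariate (0.92) and without atrial array 3 (1.10), and KCNJ5 ranged from -0.01 to 0.08 with 1 array left out. The causes were not tested. Probe sets near the floor understate differences, since a signal there has only a bound.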

Other observations

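The genes below were chosen after their values were seen and carry no test. Within the ventricles, several genes of the atrial and ventricular programmes differed between arrays of the same operation. Arrays 2 and 4 of uninephrectomized dogs had the lowest signals of MYL4 (3.66 and 5.53), IRX5 (4.99 and 5.54) and IRX3 (4.07 and 4.54), while arrays 1 and 3 had the highest MYL4 (9.97 and 10.30) and GJA5 (6.08 and 6.23). SCG5 ran the other way, with 4.70 and 5.26 in arrays 1 and 3 and 7.07 and 6.73 in arrays 2 and 4. Among the sham ventricles, array 2 was lowest in MYL4 (4.69), IRX5 (5.14), IRX3 (3.96) and GJA5 (3.41) and highest in KCNIP2 (11.03) and SCG5 (7.99). MYL7 and NR2F1 did not divide the uninephrectomized ventricles in this way, with 11.55 to 12.01 and 1.91 to 2.39.

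WIF1, a secreted Wnt inhibitor, was called higher in the atrium while its atrial signals were 6.16, 5.97, 2.40, 9.19 and 3.64, against 2.44 to 2.74 in the ventricles. CIDEA, a lipid droplet protein, was lowest in the same atrial array as ADIPOQ, array 2 (3.21, the other atria 4.63 to 6.20).

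A few genes varied between arrays far more than between chambers. DLA88, a canine MHC class I gene, had 11.99, 9.14, 9.29, 11.95 and 1.32 in the atria and 9.40, 1.58, 12.44, 9.27 and 12.08 in the ventricles. ERAP2, a peptidase that trims MHC class I ligands, had 6.49, 2.33, 6.74, 3.06 and 2.96 in the atria and 6.48, 3.81, 6.84, 3.04 and 4.02 in the ventricles. Each of these genes thus had high and low arrays in both chambers. Set along the best correlated arrays, atrial 1, 2, 3, 4 and 5 with ventricular 3, 4, 1, 5 and 2, the signals ran together. DLA88 then had 11.99 and 12.44, 9.14 and 9.27, 9.29 and 9.40, 11.95 and 12.08, and 1.32 and 1.58. ERAP2 had 6.49 and 6.84, 2.33 and 3.04, 6.74 and 6.48, 3.06 and 4.02, and 2.96 and 3.81. Both genes were part of the correlations that set these matches, so they do not test them. Whether these arrays come from the same dogs was not tested.

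Of the 8190 called probe sets 2385 carry no single gene symbol. Among them, the probe set with the largest atrial excess was at 14.16 in the atria and 3.52 in the ventricles (10.65 ± 1.03), a larger difference than that of any named gene, and the one with the largest ventricular excess was at 1.88 and 10.85 (-8.97 ± 0.25).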
